A study of Mus musculus with 6 samples.

Results

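The gene rows described here are Rn45s, the row for the precursor of ribosomal RNA, and 8 messenger RNAs of the machinery that makes and processes that precursor: Polr1a, Polr1b, Polr1c, Polr1d, Ubtf, Rrn3, Fbl and Ncl. They were taken by symbol and are 9 of the 25239 gene rows of the table. Rn45s was picked because its share of the counts was higher in the phthalate libraries, so it was selected on that share and the difference is given as a description. The other 8 symbols were chosen by their role, with earlier results of these libraries known. All 9 rows were found, and 5 of them (Rn45s, Polr1a, Polr1d, Rrn3 and Ncl) passed the filter on low counts, together with 4644 genes in all.

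Each of the 6 libraries comes from an oocyte prepared by Smart-seq3, which copies full-length RNA starting at an oligo(dT) primer. The oocytes were at the germinal vesicle (GV) stage, when the nucleus is still intact, and came from female CD-1 mice, an outbred strain, aged 4 to 6 weeks, with CD-1 as the labelled genotype in both groups. Cumulus-oocyte complexes were microinjected with water (3 libraries) or with a mixture of phthalate metabolites (3 libraries), and both groups were then cultured in maturation medium with follicle-stimulating hormone, serum and pyruvate and collected at the GV stage. Phthalates are plasticizers, and neither dose nor composition is named in the labels. No animal or culture is named and the protocol can be read as 1 oocyte per group, so each group was treated as 1 sample: values are given for every oocyte, group values are sums over its 3 oocytes, and no difference was tested. Intervals below are exact 95% intervals that cover counting error only, not the spread between animals. They treat every count as independent, and are too narrow where both mates of a read pair or PCR copies are counted.

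Ribosomal RNA is transcribed in the nucleolus by RNA polymerase I as 1 long precursor, which is then modified, cut and assembled into both ribosomal subunits. The polymerase needs Ubtf on the ribosomal DNA, the promoter factor SL1 (TBP with the TAF1 proteins) and Rrn3, which links the polymerase to the promoter. A growing oocyte makes ribosomes for the early embryo, and in the fully grown oocyte ribosomal RNA synthesis falls silent while the nucleolus turns into a compact nucleolus-like body. Mature ribosomal RNA has no poly(A) tail, so an oligo(dT) primer is not meant to capture it. It is cut from the precursor, so a count of the Rn45s row does not tell whether precursor or mature RNA was read.

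Library totals ranged from 252267 to 300917 gene counts. All 13 oocyte markers passed the filter, with 2.56% to 2.96% of the counts in a water oocyte and 2.44% to 2.77% in a phthalate oocyte. Of 20 cumulus and granulosa markers, 10 had 0 counts in every library, and the list summed to 13 to 39 counts in a water oocyte and 10 to 25 in a phthalate oocyte. Nr5a2 alone held 64 of the 75 counts after water injection and 39 of the 54 after phthalate injection. The part of follicle cell RNA in the results below was not tested.

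Rn45s was the most abundant row in all 6 libraries. On the CPM scale (counts per 1000000, here with library totals scaled by TMM factors, and always given in the order of replicates 1, 2 and 3) it measured 19600.4, 23477 and 23544 after water injection and 34558, 28225 and 36166 after phthalate injection. The lowest phthalate oocyte lay above the highest water oocyte. From 19116 counts after water injection and 26751 after phthalate injection the log2 ratio was 0.56 (0.53 to 0.58), a ratio of 1.47. Low counts in the table are mostly even numbers, as when both mates of a read pair are counted, and an interval on halved counts (read pairs) widened only to 0.52 to 0.60. Among all genes past the filter, 5.15% had 3 phthalate values above 3 water values, but nothing is read from that figure here, because the choice of Rn45s used the same values.

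The row next in rank was Zbed3 in every library, a gene highly expressed in these oocytes. Rn45s had 1.32, 1.40 and 1.29 times the counts of Zbed3 after water injection and 2.92, 2.21 and 1.44 times after phthalate injection. Zbed3 itself varied after phthalate injection, with 3061, 3850 and 6467 counts. Ncl, a nucleolar messenger RNA, had an even level in these libraries. The Rn45s row held 19.9, 21.4 and 24.7 counts per Ncl count after water injection. After phthalate injection it held 33.4, 26.5 and 37.0. This scale therefore carries the difference for which Rn45s was picked.

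ERCC spike-ins, synthetic RNAs added to a library, give a second scale. Rn45s had 7.24, 20.7 and 21.3 counts per ERCC count after water injection and 20.2, 17.1 and 31.8 after phthalate injection. On that scale the groups overlapped: phthalate oocytes 1 and 2 lay below water oocytes 2 and 3, and only phthalate oocyte 3 lay above them. The ratio of the sums was 1.59. Water oocyte 1 had 753 ERCC counts against 292 to 498 in the other libraries, and without it the ratio was 1.03, a value computed after the data were seen. Leaving out any other single oocyte gave ratios of 1.36 to 1.91. All other gene counts per ERCC count were 351, 870 and 885 after water injection and 549, 575 and 910 after phthalate injection, with a ratio of sums of 1.08. Without water oocyte 1 that ratio was 0.736, below the 1.03 of Rn45s.

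**Figure D1:**
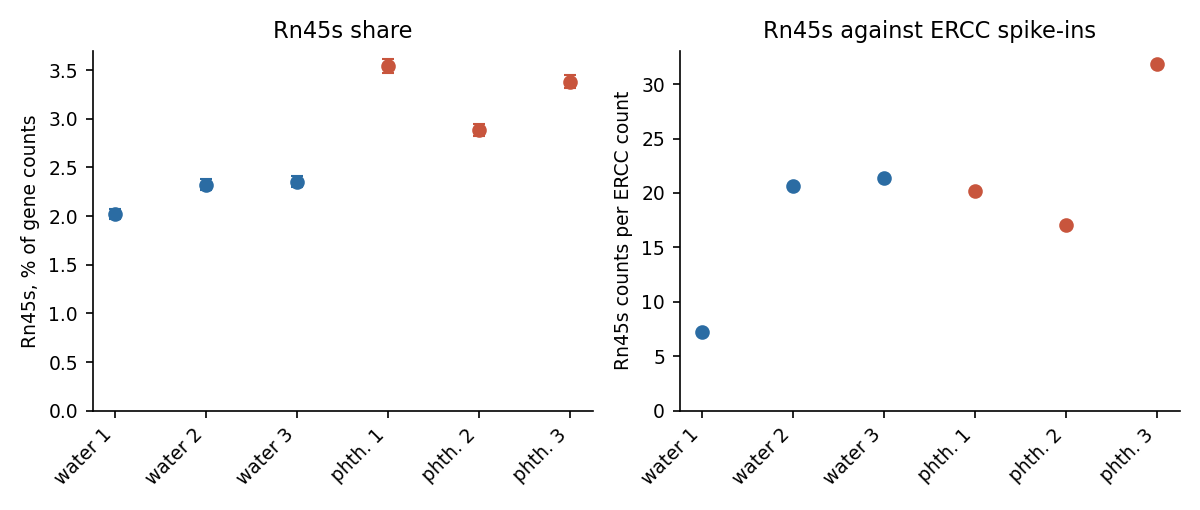
Left, Rn45s as a percentage of all gene counts in each oocyte, with exact 95% binomial intervals (counting error only); right, Rn45s counts per ERCC spike-in count. The shares of the 3 phthalate oocytes (2.89% to 3.54%) lie above those of the 3 water oocytes (2.02% to 2.35%), while the values per ERCC count overlap.

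The table holds little else of ribosomal RNA. Of 17 symbols listed for ribosomal and other structural RNAs, 5 are rows of the table: Rn45s, Rmrp, Rpph1, Terc and Rnu3a. Rmrp, Terc and Rnu3a, the RNA parts of RNase MRP, telomerase and the U3 particle, had 0 counts in all 6 libraries. That allows up to 9.94 to 11.7 CPM per library (3 counts). Rpph1, the RNA of RNase P, had 1 count, in phthalate oocyte 2. These shorter RNAs lack a poly(A) tail, and what their counts mean for the capture of Rn45s was not tested. Rows of small nucleolar RNAs, some of them with counts, are described at the end.

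In GENCODE M21 (GRCm38, the assembly also called mm10) 4 gene models lie on ribosomal DNA of chromosome 17: Gm26917 (chr17:39843013-39846341, plus strand), CT010467.1 (chr17:39846353-39848827, minus strand, annotated as rRNA), Gm42418 (chr17:39846958-39848788, plus strand) and AY036118 (chr17:39847113-39848035, minus strand). None of the 4 is a row of the count table, and neither the RefSeq gene table nor GENCODE lists Rn45s, so no coordinates are given for it. Reads from the many copies of ribosomal DNA cannot be assigned to 1 copy. The plus-strand models show what an oligo(dT) primer could meet in this sequence. In Gm26917 the longest run of A is 4 bases. Gm42418 holds 1 run of 6, shown here because it is the longest run of A in the plus-strand models, with the run in capitals (chr17:39847137-39847202, plus strand).
Gm42418 bases 180 to 245: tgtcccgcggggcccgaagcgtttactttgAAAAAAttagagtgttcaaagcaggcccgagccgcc
Of 11858 protein-coding genes with a count in these libraries, 58.5% have a run of at least 6 A in their GENCODE transcript and 13.5% a run of at least 10. The models cover part of the precursor only, and a run is a description of the sequence, not a priming site.

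Of the subunits of RNA polymerase I, Polr1a was lower after phthalate injection and Polr1d was not separated. Polr1a encodes the largest subunit, which carries the active site together with the product of Polr1b. Polr1a measured 130, 84.0 and 77.6 CPM after water injection and 38.7, 49.7 and 70.0 CPM after phthalate injection. The groups did not overlap, although phthalate oocyte 3 came close to water oocyte 3. The summed counts were 83 (66.1 to 103) and 43 (31.1 to 57.9), a log2 ratio of -0.88 (-1.44 to -0.33), or 1.84-fold lower. On read pairs the interval was -1.64 to -0.045, which still lay below 0. Without water oocyte 1 the ratio was -0.61.

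Polr1a was the single member of the 5 past the filter that was at least 1.5-fold lower, where 8.14% of all genes were, and the single member with 3 phthalate values below 3 water values, where 5.00% of all genes were. No member past the filter was at least 1.5-fold higher (6.96% of all genes). Rn45s, selected on this difference, lies just under that line, and its log2 ratio passes it with the ERCC denominator (0.67) and without water oocyte 2 (0.60), water oocyte 3 (0.60) or phthalate oocyte 2 (0.68). With the ERCC denominator 482 genes were at least 1.5-fold higher and 241 lower, in place of 323 and 378. With 5 members, a count of 1 is too small to set apart from those percentages.

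Polr1b pointed the same way at a level too low for the filter. It had 2, 10 and 7 counts after water injection and 2, 2 and 0 after phthalate injection. Water oocyte 1 lay at the level of the phthalate oocytes, so the groups overlapped. The log2 ratio from 19 and 4 counts was -2.18 (-4.19 to -0.59), with -5.48 to -0.019 on read pairs.

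Polr1c and Polr1d encode the pair of subunits on which the enzyme is assembled, and both are shared with RNA polymerase III. Polr1d was the best measured messenger RNA of the polymerase, with 313, 259 and 307 CPM after water injection and 162, 255 and 331 CPM after phthalate injection. Phthalate oocyte 1 was the lowest of the 6 and phthalate oocyte 3 the highest. The log2 ratio was -0.23 (-0.50 to 0.045), and without phthalate oocyte 1 it was -0.0076. Polr1c had 2, 4 and 0 counts after water injection and 2, 4 and 0 after phthalate injection, 6 in each group, with a ratio of 0.072 (-1.83 to 1.98). Leaving out 1 oocyte moved it from -0.84 (without phthalate oocyte 2) to 1.05 (without water oocyte 2). At this depth even a 3-fold difference of Polr1c was not detectable.

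**Figure D2:**
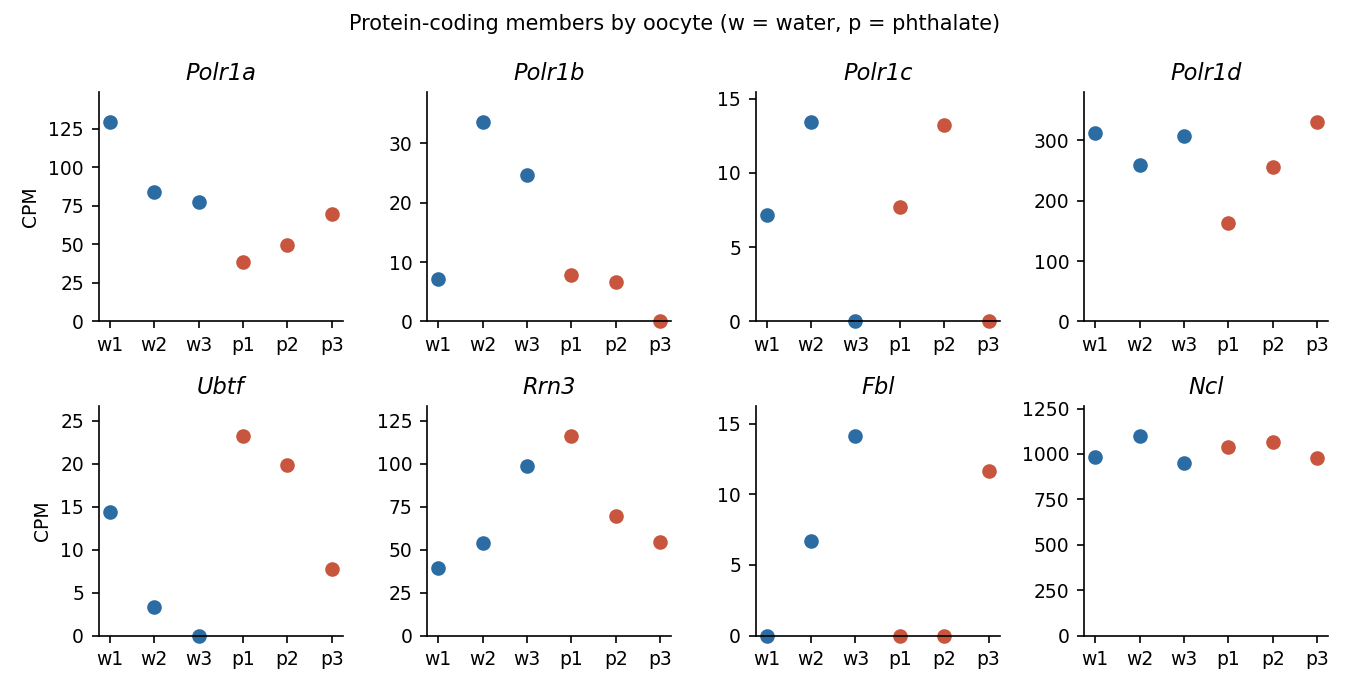
CPM of the 8 protein-coding members in each oocyte, with each vertical axis starting at 0 and scaled to its own gene. Polr1a is the single member whose phthalate values (38.7 to 70.0 CPM) all lie below its water values (77.6 to 130 CPM), and Ncl is even across all 6.

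The wider list of polymerase I subunits had 13 rows, of which 9 passed the filter. Some of the 13 (Polr2e, Polr2f, Polr2h, Polr2k and Polr2l) are shared with RNA polymerases II and III. The ratio was below 0 for 7 of the 9 (48.8% over all genes) and above 0 for 2, with a median log2 ratio of -0.23, against 0.0089 over all 4644 genes. Of the 13 oocyte markers, 10 also had a ratio below 0, with a median of -0.065. At least 1.5-fold lower were 2 of the 9 subunits (8.14% over all genes), Polr1a and Twistnb. Twistnb, a subunit of the stalk, had 35 and 20 counts and a ratio of -0.74 (-1.61 to 0.097). Twistnb was chosen after its values were seen, since its mean count is below 20. Below the filter, Cd3eap and Polr2h had ratios opposite in sign to that of Polr1b, with overlapping groups. Cd3eap, with 14 and 29 counts, had 1.12 (0.16 to 2.16), and -0.096 to 2.79 on read pairs. Polr2h, with 4 and 9 counts, had 1.24 (-0.60 to 3.39). Of the shared subunits past the filter, Polr2e and Polr2l had ratios of 0.093 and 0.12, and Polr2f and Polr2k had ratios of -0.22 and -0.10. Without phthalate oocyte 1 the list's median was -0.076.

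Among the initiation factors, Rrn3 and Ubtf had ratios above 0 with overlapping groups. Rrn3, which makes the polymerase competent to start, measured 39.6, 53.7 and 98.7 CPM after water injection and 116, 69.6 and 54.5 CPM after phthalate injection. Both groups spread over more than 2-fold and overlapped, with the highest value in phthalate oocyte 1 and the lowest in water oocyte 1. The log2 ratio was 0.31 (-0.23 to 0.86), and without phthalate oocyte 1 it was -0.028. Ubtf, which coats active ribosomal DNA, had 4, 1 and 0 counts after water injection and 6, 6 and 2 after phthalate injection. The groups overlapped, since phthalate oocyte 3 lay below water oocyte 1. Its log2 ratio from 5 and 14 counts was 1.56 (0.0027 to 3.38), and on read pairs the interval of -0.51 to 5.18 included 0. Leaving out water oocyte 1 gave 3.32, and leaving out water oocyte 3 gave 0.98.

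Of the SL1 subunits, 3 passed the filter, and the phthalate values of Taf1a and Tbp lay below all their water values. Taf1a, the most abundant gene of the list, measured 417, 390 and 388 CPM after water injection and 236, 322 and 346 CPM after phthalate injection. All 3 phthalate values lay below the water values, and the log2 ratio was -0.40 (-0.64 to -0.16). Tbp, the TATA-binding protein used by all nuclear RNA polymerases, measured 148, 97.4 and 102 CPM against 58.0, 69.6 and 46.7 CPM. Its groups did not overlap either, and the log2 ratio was -0.97 (-1.50 to -0.46). Tbp (chr17:15499888-15528379, plus strand) overlaps Pdcd2 on the opposite strand, and the use of strand in counting is not stated.

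Taf1b had 41 and 26 counts and a log2 ratio of -0.58 (-1.35 to 0.16), just short of 1.5-fold, with overlapping groups. Taf1d went the opposite way below the filter. It had 1, 4 and 7 counts after water injection and 17, 13 and 5 after phthalate injection, a log2 ratio of 1.62 (0.64 to 2.70), and phthalate oocyte 3 lay within the range of the water oocytes. Taf1d hosts small nucleolar RNA genes and overlaps Cep295 and 4931406C07Rik on the opposite strand. Ttf1, the termination factor, had 2 and 7 counts, and Taf1c had 2 and 5.

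In all, 9 rows of the initiation and termination list were present and 4 passed the filter: Rrn3, Taf1a, Taf1b and Tbp. The median log2 ratio of those 4 was -0.49. At least 1.5-fold lower was 1 of the 4 (Tbp), 0 were at least 1.5-fold higher, and 2 of the 4 (Taf1a and Tbp) had phthalate values below all water values. Over all genes 8.14% were at least 1.5-fold lower, 6.96% at least 1.5-fold higher and 5.00% had all phthalate values below the water values. With no filter on low counts the median of the list was 0.33, with Ubtf, Taf1c, Taf1d, Ttf1 and Cavin1, all of few counts, then included.

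**Figure D3:**
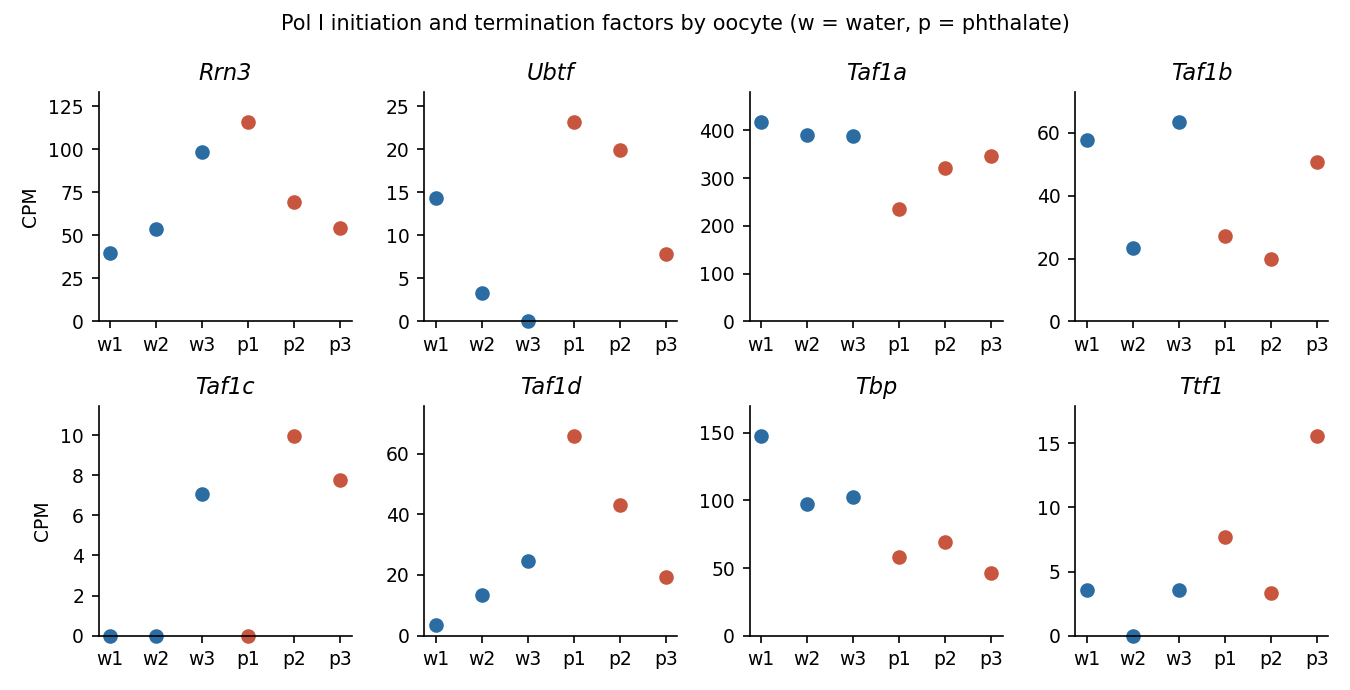
CPM of 8 initiation and termination factors of RNA polymerase I in each oocyte, with each vertical axis starting at 0 and scaled to its own gene. For Taf1a and Tbp the 3 phthalate values lie below the 3 water values, and for Rrn3, Ubtf, Taf1b, Taf1c, Taf1d and Ttf1 the groups overlap.

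The promoters of Polr1a and Rrn3 are shown because these are the catalytic subunit that was lower after phthalate injection and an initiation factor whose ratio was above 0. Both are the 250 bases before the gene's start in RefSeq (GRCm38.p6), 5′ to 3′ on the gene's strand, and capitals mark CACGTG, the E-box bound by MYC and related factors, which reads the same on both strands and is the single motif searched.
Polr1a, chr6:71908803-71909052, plus strand: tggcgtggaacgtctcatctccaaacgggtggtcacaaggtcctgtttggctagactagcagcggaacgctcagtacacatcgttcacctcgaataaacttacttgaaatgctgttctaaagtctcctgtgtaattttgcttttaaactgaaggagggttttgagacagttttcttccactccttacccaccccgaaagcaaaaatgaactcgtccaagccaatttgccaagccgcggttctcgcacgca
Rrn3, chr16:13780449-13780698, plus strand: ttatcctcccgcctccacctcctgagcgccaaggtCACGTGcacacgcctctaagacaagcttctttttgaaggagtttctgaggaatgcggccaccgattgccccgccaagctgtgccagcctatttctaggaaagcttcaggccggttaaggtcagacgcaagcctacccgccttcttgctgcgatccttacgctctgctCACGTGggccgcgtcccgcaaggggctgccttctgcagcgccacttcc
Rrn3 holds 2 matches, which begin 215 and 48 bases before the start, and these letters are not in the Polr1a window. Of the 8 protein-coding members 7 have a promoter in the table, and Rrn3 is the single one with a match. Among genes of the pathway lists 16 of 146 have a match (11.0%), against 6.86% of 27025 genes in the whole table. A match is a description of the letters and not a bound site.

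Fbl and Ncl act after transcription. Fbl, the methyltransferase of box C/D particles, which methylate ribosomal RNA, was hardly detected. It had 0, 2 and 4 counts after water injection and 0, 0 and 3 after phthalate injection, and its log2 ratio of -0.93 (-3.56 to 1.30) spanned 0 widely. Without water oocyte 3 the ratio was 0.079. Ncl, which binds the precursor and helps its first cut, was the most abundant messenger RNA of the members. It measured 986, 1098 and 952 CPM after water injection and 1036, 1064 and 977 CPM after phthalate injection. The groups overlapped fully. The log2 ratio was 0.020 (-0.12 to 0.16). Ncl (chr1:86344719-86359400, minus strand) hosts small nucleolar RNA genes in its introns, among them Snora75.

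**Figure D4:**
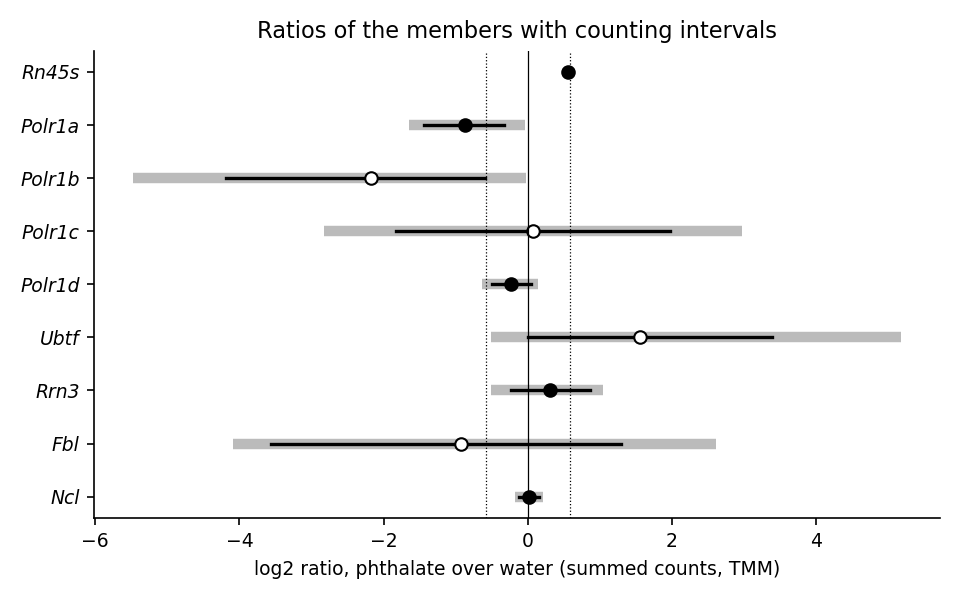
Log2 ratio of phthalate over water for the 9 members, with exact 95% counting intervals from the counts (black lines) and from read pairs (grey bars); filled points passed the filter on low counts, open points did not, and dotted lines mark 1.5-fold. Rn45s (0.56) and Ncl (0.020) have the narrowest intervals, while those of Polr1b, Polr1c, Ubtf and Fbl span several log2 units.

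Levels of the 8 messenger RNAs can be set beside each other per length. On that scale (CPM per kilobase of the GENCODE transcript with the longest coding sequence, mean of 6 oocytes) Polr1d stood first with 227, followed by Ncl with 124, Rrn3 with 20.1 and Polr1a with 8.13. Polr1d ranged from 136 to 277 over the oocytes and Ncl from 116 to 134, so these neighbours just missed each other. Rrn3 (11.1 to 32.4) and Polr1a (4.19 to 14.1) overlapped. Polr1c, Fbl, Ubtf and Polr1b had means of 5.28, 4.52, 4.15 and 3.33, overlapped with Polr1a and could not be ordered. Polr1a had a mean of 10.5 after water injection and 5.73 after phthalate injection, and Ubtf had means of 2.14 and 6.15, so the place of Polr1a above Ubtf holds for the water oocytes but not for the phthalate means. The Ncl model is 8202 bases long, of which 2121 are coding, and per kilobase of coding sequence the means of Polr1d (680) and Ncl (480) kept this order. On that scale the ranges overlapped, since phthalate oocyte 1 had 407 for Polr1d and 488 for Ncl. The nucleoplasmin Npm2, the oocyte's own histone chaperone, needed for nucleolus-like bodies, had 2526 CPM per kilobase of transcript, far above its relative Npm1 with 330.4.

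Genes that work on ribosomal RNA were gathered in 8 lists. These lists together, including the 8 protein-coding members, had 173 rows, of which 112 passed the filter. At least 1.5-fold higher were 10 (8.93%) and at least 1.5-fold lower were 13 (11.6%), against 6.96% and 8.14% of all genes. Phthalate values lay above all water values for 8 (7.14%) and below them for 6 (5.36%), against 5.15% and 5.00%. The median log2 ratio of the 112 was 0.029. Summed over all 173 rows, these genes took 2.07%, 1.90% and 1.98% of the counts after water injection and 2.03%, 1.98% and 1.91% after phthalate injection. The sum is weighted by abundant genes such as Npm2 and Mphosph6. The polymerase I subunits alone had 1145 counts after water injection and 1000 after phthalate injection, and the initiation and termination factors had 560 and 449.

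The 8 regulators of ribosomal DNA chromatin past the filter had a median of 0.0096, with 0 past 1.5-fold in either direction and 0 with groups apart. Over all genes 6.96% were at least 1.5-fold higher, 8.14% lower, and 5.15% and 5.00% had groups apart, so 0 of 8 is near the background. Kdm2b, a histone demethylase and the most abundant of them, had a log2 ratio of 0.15 (-0.089 to 0.40). Baz2a, a subunit of the NoRC complex, which silences ribosomal DNA, had 255, 205 and 208 CPM after water injection and 290, 255.2 and 261 CPM after phthalate injection, which touch at 255 CPM.

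In the proteins of small nucleolar particles, 7 of 10 genes past the filter had a ratio above 0 (51.2% over all genes) and the median was 0.12. At least 1.5-fold higher was 1 of the 10 and lower 0, against 6.96% and 8.14% of all genes. Dkc1, the pseudouridine synthase of box H/ACA particles and the most abundant, had a ratio of 0.025 (-0.24 to 0.29). The partners of Fbl in the box C/D core were better detected than Fbl itself. Nop56 had 96 and 114 counts and a ratio of 0.32 (-0.084 to 0.73), Nop58 had 96 and 78 and a ratio of -0.23 (-0.68 to 0.22), and Snu13 had 210 and 187 and a ratio of -0.095 (-0.39 to 0.20). The gene past 1.5-fold was Rrp9, a U3 protein, with 26 and 41 counts and a ratio of 0.73 (-0.014 to 1.497). It was named after its values were seen.

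The nucleolin and nucleophosmin list had 8 genes past the filter and a median of 0.072. At least 1.5-fold higher was 1 of the 8 and lower 1, against 6.96% and 8.14% of all genes. Npm2 measured 2321, 2304 and 2433 CPM after water injection and 2675, 2214 and 3163 CPM after phthalate injection, which overlapped. At least 1.5-fold lower was Nol8, a nucleolar protein, with 107 and 66 counts and a ratio of -0.62 (-1.09 to -0.17), though water oocyte 2 alone held 60 of its counts. At least 1.5-fold higher was Nucks1, a nuclear phosphoprotein named after its values were seen, with 26 and 49 counts and a ratio of 0.99 (0.27 to 1.73). On read pairs the intervals of both included 0, with -1.28 to 0.042 for Nol8 and -0.0059 to 2.11 for Nucks1.

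The small subunit processome cuts and folds the part of the precursor that becomes the small subunit. Of 31 genes past the filter 4 were at least 1.5-fold higher (6.96% over all genes) and 6 at least 1.5-fold lower (8.14% over all genes), with a median of 0.033. Pwp2, a core beta-propeller protein, measured 61.2, 107 and 113 CPM against 42.5, 39.8 and 62.3 CPM, a ratio of -0.98 (-1.57 to -0.41). Its groups overlapped narrowly. Ltv1, which helps late small-subunit assembly, measured 72.0, 118 and 98.7 CPM against 38.7, 59.7 and 58.4 CPM, with groups apart and a ratio of -0.88 (-1.44 to -0.33). Nol10 had a ratio of -0.77 (-1.28 to -0.27) and Nop14 one of 0.68 (0.15 to 1.21), both with overlapping groups. On read pairs the interval of Nop14 was -0.054 to 1.46. Bms1, a GTPase and the most abundant of the list, had a ratio of 0.13 (-0.065 to 0.32). Heatr1, which is also needed for transcription of ribosomal DNA, was named after its values were seen: 34 and 64 counts gave a ratio of 0.98 (0.36 to 1.63), with all phthalate values above the water values.

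In the assembly of the large subunit, 20 of 31 genes past the filter had a ratio above 0 (51.2% over all genes), with a median of 0.17. With no filter on low counts the median was 0.017. At least 1.5-fold higher were 4 (6.96% over all genes) and at least 1.5-fold lower were 2 (8.14% over all genes). Tex10 and Pelp1 encode proteins of 1 complex, which works on late precursors of the large subunit. Tex10 measured 50.4, 73.9 and 45.8 CPM after water injection and 112, 99.4 and 101 CPM after phthalate injection, with groups apart and a ratio of 0.87 (0.34 to 1.40). Pelp1 had a ratio of 0.61 (0.13 to 1.10) with overlapping groups. Of other proteins that work with them, Wdr18 had a ratio of 0.14 (-0.39 to 0.68), Las1l one of 0.0066 (-0.44 to 0.45) and Nol9 one of -0.46 (-1.10 to 0.16). Senp3, below the filter with 18 and 23 counts, had a ratio of 0.43 (-0.53 to 1.40). These intervals overlap that of Pelp1, but that of Nol9 lies below that of Tex10. On read pairs the interval of Nol9 was -1.41 to 0.40, which overlaps that of Tex10. The differences were not tested. Pes1, a subunit of the PeBoW complex, had a ratio of -0.66 (-1.15 to -0.18), but water oocyte 2, with 11 counts against 46 and 41, lay below all phthalate oocytes. Ddx24, a helicase and the most abundant of the list, had a ratio of 0.28 (0.074 to 0.48) and overlapping groups. On read pairs the intervals of Pelp1 (-0.12 to 1.27), Pes1 (-1.40 to 0.0067) and Ddx24 (-0.0090 to 0.57) included 0, and that of Tex10 (0.12 to 1.67) did not.

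Of 11 genes of the exosome and nucleases past the filter, 0 were at least 1.5-fold higher, 1 was lower (Eri1, named after its values were seen, with a ratio of -0.60, interval -1.35 to 0.13), and the median was -0.089. Both counts are near the 6.96% and 8.14% of all genes. Mphosph6, which tethers the exosome to the precursor of 5.8S RNA, was abundant, with 1846, 2015 and 2295 CPM after water injection and 1430.1, 1518 and 2416 CPM after phthalate injection. Its phthalate values held both the lowest and the highest of the 6, and the ratio was -0.21 (-0.31 to -0.11).

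**Figure D5:**
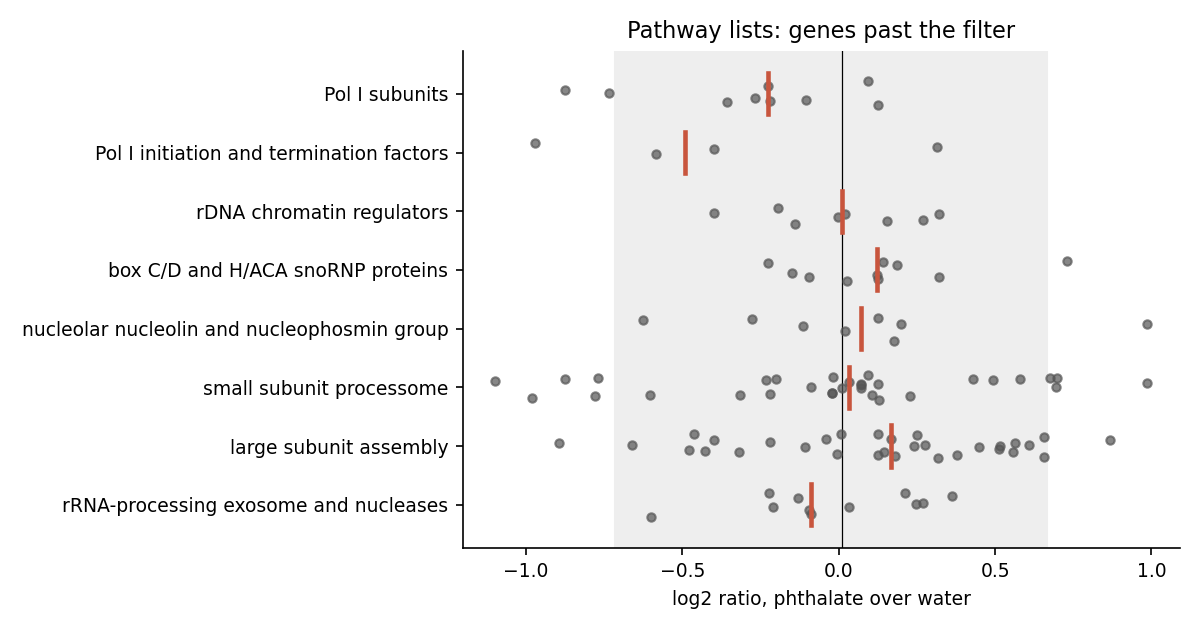
Log2 ratio of phthalate over water for each gene past the filter in 8 lists (grey points) with the list median (red bar); the grey band holds the middle 90% of all 4644 genes (-0.72 to 0.66) and the black line their median. Medians run from -0.49 for initiation and termination factors (4 genes) to 0.17 for large subunit assembly (31 genes), and most points lie within the band.

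The rows whose levels followed Rn45s most closely over the 6 oocytes were searched among 2783 other genes whose mean count reached 20. By Pearson's r of log2 CPM they were Fam192a (0.97), Magoh (0.97), Arl8b (0.96), Cpsf4l (0.96) and 1110059G10Rik (0.96), and 16 genes had r above 0.9. The points share library and depth, and these are the highest values among many genes over 6 points, so they are descriptions. Fam192a measured 137, 158 and 162 CPM after water injection and 201, 179 and 237 CPM after phthalate injection. Magoh, a core protein of the exon junction complex, measured 133, 154 and 141 CPM against 209, 172 and 198 CPM. As for Rn45s, water oocyte 1 was the lowest of its group and phthalate oocyte 2 the lowest of its group in both genes. Both were picked by r with Rn45s, so this likeness follows from the choice. Of the members with enough counts, Polr1a had r = -0.79, Polr1d -0.41, Rrn3 0.45 and Ncl 0.045 with Rn45s. Rn45s was picked for its difference between the groups, so every r here also carries that difference.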

How the data were processed

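The authors deposited 1 table of whole-number counts per gene symbol and ERCC spike-in, not normalized, with a column per library. Libraries were sequenced as pairs of 150 bp, per the labels' protocols. The build mm10 and the tools cutadapt, Trimmomatic, HISAT2 and DESeq2 are named in the submitters' processing notes. The counting tool, the annotation and the use of strand are not given in the sources used here, and mates of a pair appear to be counted singly.

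From the deposited counts, ERCC rows (92) were set aside and 4644 genes kept by filterByExpr (minimum count 10, minimum total 15; edgeR 4.0.16, R 4.3.3). Counts were summed per group and divided by group totals scaled by TMM factors. A log2 ratio has no pseudocount, and a sum of 0 was set to 3 counts, with no ratio where the other sum was 3 or less. Its exact interval (Clopper-Pearson, 95%) covers counting error only, as do the exact Poisson intervals of sums and the binomial ones of shares, since PCR copies are not independent molecules. The ratios were tested on simulated data. No test between groups was run, because the labels name no animal or culture.

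Named genes are the members, up to 4 genes per list with a mean count of at least 20 that pass 1.5-fold, each list's most abundant gene, structural RNA rows with a count, and the 5 most like Rn45s (r of log2 CPM, prior count 2). Other names were chosen after their values were seen. The members and lists were chosen with earlier results of these data known. Alternatives were other scalings, no filter, mean CPM and each oocyte left out. GENCODE M21 gave loci and transcripts, and RefSeq (GRCm38.p6) gave promoters.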

Additional observations from a re-analysis of the deposited data

How the results depend on the processing

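No paired analysis was possible because no result here is tested and no label ties an oocyte of one group to an oocyte of the other. With the ERCC denominator the Rn45s log2 ratio was 0.67, but the median of all genes then moved to 0.12. Leaving out 1 oocyte gave 0.48 to 0.68 for that ratio and 1.39 to 1.55 for the ratio of shares. Per ERCC count the Rn45s ratio was 1.03 without water oocyte 1. The groups do not overlap for the Rn45s share, so its sign says nothing about stability. Fbl ranged from -1.49 without water oocyte 1 to 0.079 without water oocyte 3, which held 4 of its 6 water counts.

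With the ERCC denominator the small subunit processome median was 0.15 and the exosome and nuclease median 0.026, and 482 genes were at least 1.5-fold higher and 241 lower. Of the pathway genes 16 were then at least 1.5-fold higher and 9 lower. That denominator shifts every log2 ratio by the same amount, so these changes follow from the scale. With no filter, which adds genes of few counts, the medians of initiation and termination factors and of large subunit assembly were 0.33 and 0.017, 1900 genes were at least 1.5-fold higher and 2070 lower, and the pathway counts were 25 and 33. The pathway counts under alternatives were added after the data were seen. Leaving out 1 oocyte gave medians of -0.027 to 0.16 for the processome and -0.096 to 0.066 for exosome and nucleases, 436 to 538 genes higher and 475 to 617 lower, and 10 to 16 pathway genes higher and 9 to 15 lower. The cause of the changes under the other settings was not tested. None of the 96 alternative values of the other 8 members left its main counting interval, which is wide for Polr1b, Polr1c, Ubtf and Fbl. Lists that held Rn45s alone were not repeated.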

Other observations

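Small nucleolar RNAs guide the modification of ribosomal RNA. These rows were looked at after the data were seen. Of 74 box C/D rows (Snord) 6 had a count, with 9 counts after water injection and 11 after phthalate injection. Of 36 box H/ACA rows (Snora) 11 had a count, with 186 and 141 counts, and 0 of 9 Scarna rows had one. Most box H/ACA counts came from Snora47, with 33, 73 and 54 counts after water injection and 34, 42 and 44 after phthalate injection. Its groups overlapped, and its log2 ratio was -0.34 (-0.70 to 0.0076). On read pairs the interval was -0.83 to 0.18.

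The protein part of the ribosome gives another scale for Rn45s, also added after the data were seen. It too carries the difference for which Rn45s was picked. Over 88 cytosolic ribosomal protein rows, Rn45s had 61.9, 78.0 and 80.7 counts per 100 ribosomal protein counts after water injection and 110, 87.0 and 105 after phthalate injection. The ribosomal protein share itself was 3.27%, 2.98% and 2.92% after water injection and 3.22%, 3.32% and 3.22% after phthalate injection, which overlapped.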
